A study of Mus musculus with 8 samples.

Results

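The genes of the MAP kinase cascade and the dual-specificity phosphatases were examined in mouse neutrophils. Members were the rows of the gene table whose symbols start with Map2k, Map3k, Map4k, Mapk or Dusp and that held 10 or more counts in at least 3 libraries. Of 64 rows with such symbols among the 18187 of the table, 57 met the count rule: 35 kinases, 16 phosphatases and 6 genes that are neither. The libraries came from cells labelled as neutrophils, linked to B16, a mouse melanoma line that was the tumor of the study. There were 3 libraries after treatment with aOX40 (replicates 1 to 3) and 5 after IgG (replicates 2 to 6). OX40 is a receptor of the TNF receptor family found mainly on T cells once they are activated; the labels do not spell out the aOX40 agent further. The labels used here do not state mouse strain, age, dose, time after treatment or how the cells were isolated. Nor do they say whether each library came from its own animal, so every p-value reflects variation between libraries, part of which may be technical.

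MAP kinases sit at the end of a relay of protein kinases. Upstream MAP4K and RAS-type inputs act on MAP3K enzymes, these phosphorylate MAP2K enzymes, and those phosphorylate the MAP kinases ERK, JNK and p38. Dual-specificity phosphatases (DUSPs) remove phosphate from both tyrosine and threonine, and the subset called MAP kinase phosphatases (MKPs) switches the MAP kinases off. Several MKP genes are themselves induced by the cascade, so that their transcripts are used as a readout of feedback. In neutrophils the cascade is known for its part in adhesion, granule release, priming of the oxidase and cytokine production. The libraries measured transcripts, not phosphorylation or enzyme activity.

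Library totals ran from 52.7 to 73.5 M (1 M is 1e6 estimated counts). The aOX40 libraries were deeper, at 71.1 ± 2.06 M (SD, n = 3) against 58.9 ± 5.02 M (SD, n = 5; two-sided p = 0.0179 by exact permutation, the lowest value possible with these group sizes). Depth and treatment therefore cannot be told apart by group. Levels are given as CPM, counts per 1e6 counts of a library after TMM scaling. The 16 neutrophil markers checked summed to 30900 to 36100 CPM in aOX40 and 28400 to 42400 CPM in IgG. Of them, 3 passed as higher in aOX40, as did 2.64% of all 13278 genes tested. These were Mmp8, Mmp9 and Cd177, which encode granule proteases and a neutrophil surface protein (adjusted p = 0.0443, 0.0467 and 0.0414, edgeR). Others of the 16 were lower in aOX40 and did not pass. Among them, G0s2 was at 3413 ± 1190 against 6245 ± 1795 CPM and Camp at 153 ± 39.5 against 339 ± 200 CPM (adjusted p = 0.0953 and 0.202, edgeR). Macrophage and monocyte markers summed to 549 to 790 CPM in aOX40 and 376 to 726 CPM in IgG, and the macrophage receptor gene Adgre1 was 1 of 10 such markers in the table that passed the test (21.6 ± 6.37 against 6.12 ± 2.62 CPM, adjusted p = 0.0248, edgeR). T cell, melanoma, fibroblast, endothelial and dendritic cell lists summed to at most 17.1, 15.4, 32.4, 27.5 and 6.11 CPM in any library. The fibroblast collagen gene Col1a1 fell from 15.01 ± 11.8 to 1.72 ± 0.493 CPM (adjusted p = 0.0414, edgeR). B cell markers (2 of 6 in the table) reached 251 CPM and erythroid markers 584 CPM. In bulk libraries such as these, fewer cells of a type and less RNA per cell cannot be told apart.

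Of the 57 members, 1 passed the test between aOX40 and IgG: Dusp6, a phosphatase that acts on ERK, was higher after aOX40. That is 1.75% of the members, where 5.65% of all 13278 genes tested passed (edgeR quasi-likelihood test, adjusted p below 0.05), and 2.64% passed as higher and 3.00% as lower. The call rests on a setting of that test, described with the gene below. The direction of calls over all genes depended on scaling: 46.8% of calls were higher with TMM factors and 78.0% with total counts alone. None of the 35 kinases passed, and 1 of the 16 phosphatases did. At an unadjusted p below 0.05 in edgeR there were 4 higher and 2 lower kinases, and 3 higher and 3 lower phosphatases. Over all members this made 16 of 57, or 28.1% (8 higher and 8 lower), against 24.8% of all genes tested (12.5% higher and 12.2% lower). The counts by role given below are to be read beside these shares. The 8 lower include Mapkbp1, which met the count rule through IgG libraries alone, so its direction was set by the rule. The 8 higher include Map3k4, also counted below as without overlap. Map3k4 met the rule through the aOX40 libraries, so its direction was set in the same way. The 3 aOX40 values lay entirely outside the range of the 5 IgG values for 7 members, 12.3% of them, where 16% of all genes tested showed no overlap (8.22% higher and 7.75% lower). Among the 33 members with a mean of at least 10 CPM, 1 passed (3.03%), against 10.1% of the 4942 genes tested at that level.

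As classes, kinases and phosphatases are described here by their medians. The median log2 fold change (aOX40 against IgG) was 0.23 for the kinases, with 22 above and 13 below 0, and 0.12 for the phosphatases, with 10 above and 6 below 0. Over all genes tested the median was 0.05, with 52.2% above 0. Among members with a mean of at least 10 CPM the medians turned to -0.12 for 22 kinases and -0.47 for 8 phosphatases, beside -0.03 for all genes at that level. The sign of both class medians thus differed between all members and those at higher levels. The phosphatase median also turned to -0.20 without aOX40 replicate 3 and to -0.0087 without IgG replicate 6, and the kinase median went to 0.075 without aOX40 replicate 3. With limma voom the phosphatase median was 1.11, beside 0.14 for all genes. No test of the difference between the classes was made.

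**Figure D1:**
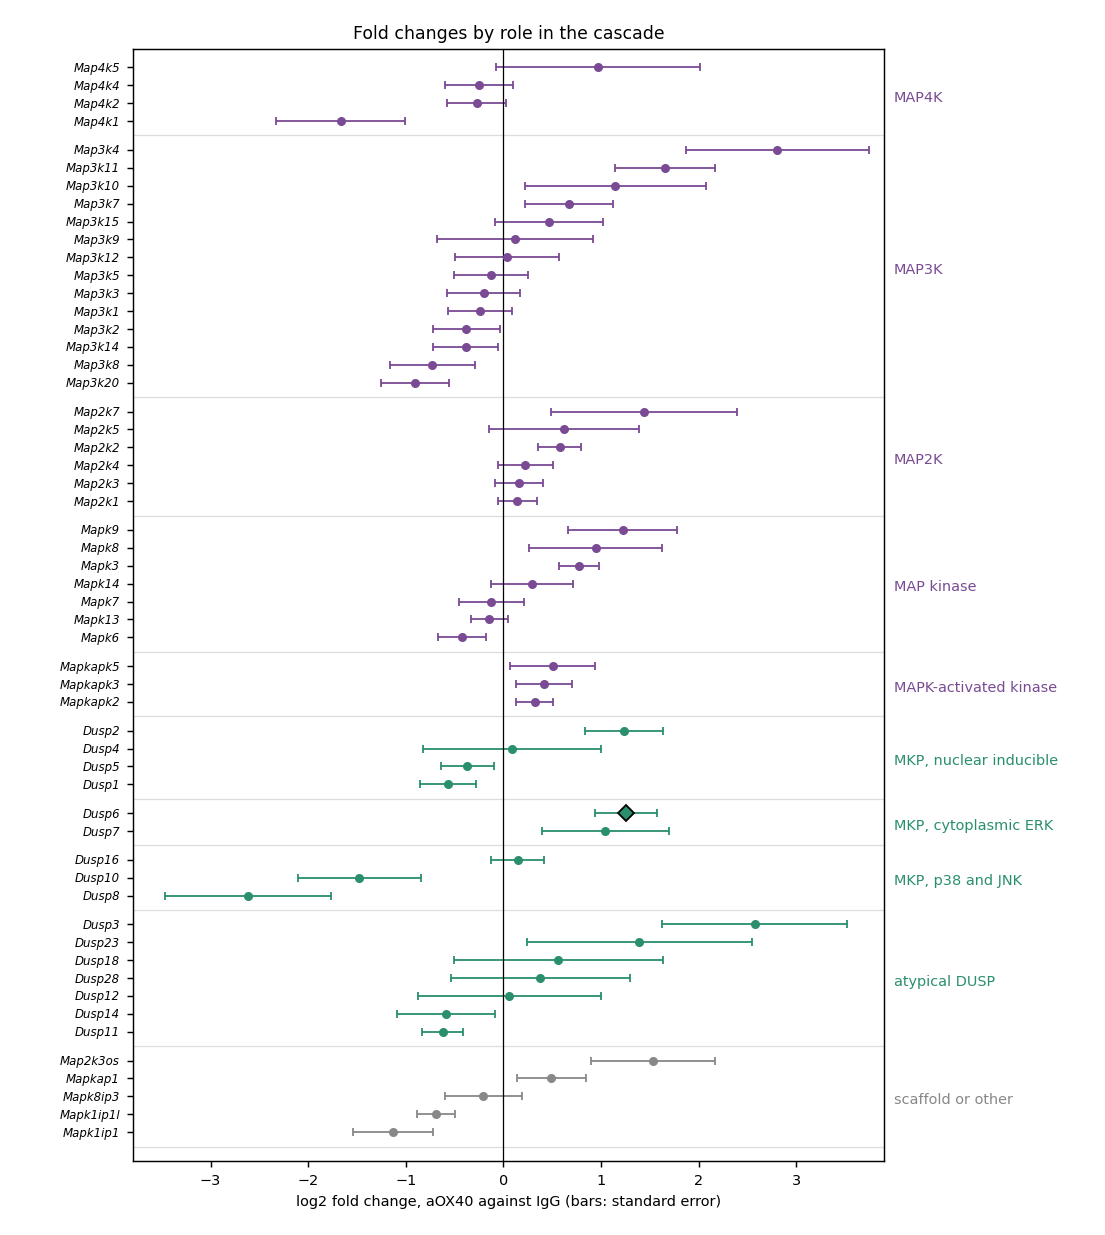
Log2 fold change of each tested member (horizontal axis, aOX40 against IgG, bars are standard errors), grouped by role in the cascade, with kinases in purple, phosphatases in green and other members in grey. The outlined diamond is Dusp6, the member that passed the test; Mapkbp1, with 0 counts in all 3 aOX40 libraries, and 1 MAP kinase are not drawn.

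Dusp6, the cytoplasmic phosphatase specific for ERK, was at 235, 464 and 416 CPM in aOX40 replicates 1 to 3. In IgG replicates 2 to 6 it was at 106, 257, 131, 113 and 170 CPM. The groups overlapped, since IgG replicate 3 lay above aOX40 replicate 1. The means were 372 ± 121 CPM (SD, n = 3) and 156 ± 62.1 CPM (SD, n = 5), which edgeR put at 1.26 on the log2 scale (SE 0.32, 95% interval 0.56 to 1.96, adjusted p = 0.0459). The call depended on a setting of the test that was picked with calls already seen. With edgeR's default in this version, the legacy setting, 0 of the 57 members passed and Dusp6 had an adjusted p of 0.0851. The legacy-off setting was taken to match an earlier analysis of this table, after 12 combinations of the dispersion, robust and legacy settings had been tried and their member calls seen. Of the 10 that could be run, the 6 with legacy off called Dusp6 (adjusted p from 0.0458) and the 4 with legacy on called no member (up to 0.0888). Over other choices the call was made in 11 of 20 alternative analyses, with adjusted p from 0.00435 (DESeq2) to 0.244 (edgeR with the replicate block). Apart from the legacy run, every edgeR alternative kept legacy off, so this tally is not independent of the setting that decides the call. The block fit drew the group difference only from libraries with shared replicate numbers. This left few degrees of freedom to estimate variation. The call was lost when any of 6 single libraries was left out, to 0.209 without aOX40 replicate 2 and to 0.136 without aOX40 replicate 3. Without IgG replicate 2, 4, 5 or 6 the adjusted p was 0.0734, 0.0731, 0.0784 and 0.0666. The log2 fold change stayed between 1.07 and 1.57 in all 20. The macrophage genes Adgre1 and Csf1r (51.2 ± 21.2 against 17.5 ± 8.26 CPM, adjusted p = 0.0546, edgeR) were also at higher levels in aOX40, while other genes of that list did not pass: Ly6c2 was at 547 against 425 CPM, Apoe at 36.3 against 35.8 CPM, and C1qa, C1qb and C1qc each below 1 CPM in both means. Their part in the Dusp6 difference was not tested. The gene lies on the plus strand of chromosome 10 at chr10:99263231-99267489 (GRCm38, GENCODE M21), and its exons overlap no other gene of the table.

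**Figure D2:**
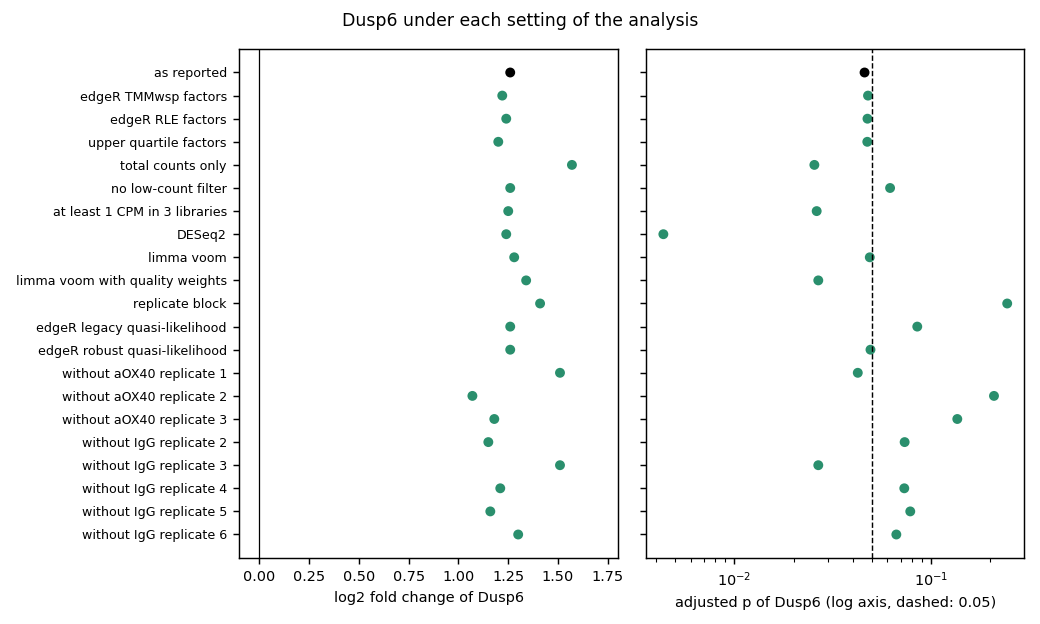
Log2 fold change (left) and adjusted p on a log axis (right) of Dusp6 in the analysis as reported (black) and in 20 alternatives (green), with the threshold of 0.05 as a dashed line. The log2 fold change lies between 1.07 and 1.57 throughout, and the adjusted p lies above the threshold in 9 of the 20 alternatives.

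Dusp7, the other measured phosphatase of the cytoplasmic ERK group, was low. It was at 2.38, 9.20 and 5.33 CPM in aOX40 and 3.78, 5.09, 0.037, 3.77 and 1.31 CPM in IgG. For this gene edgeR gave 1.04 on the log2 scale (SE 0.65, adjusted p = 0.350). Its values overlapped between the groups.

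The nuclear inducible MKPs, encoded by immediate early genes, lay on both sides of 0, with no gene past the threshold. Dusp1, which acts on p38, JNK and ERK and is known as a brake on inflammatory cytokine transcripts, stood at 7007, 5580 and 9091 CPM in aOX40. In IgG it stood at 11955, 10098, 16053, 6558.5 and 8882 CPM. The groups overlapped, and the difference did not pass (log2 fold change -0.57, SE 0.29, 95% interval -1.20 to 0.07, adjusted p = 0.254, edgeR). Its exons overlap those of Ergic1 on the other strand. Dusp5, a nuclear phosphatase specific for ERK, was at 526, 589 and 1009 CPM in aOX40 and at 789, 1065, 1175.5, 633 and 912 CPM in IgG, also with overlap (-0.37, SE 0.27, adjusted p = 0.433, edgeR).

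Dusp2, a nuclear phosphatase of activated immune cells, lay on the other side of 0. It was at 60.0, 83.7 and 131 CPM in aOX40 and at 12.1, 59.7, 37.0, 42.5 and 42.9 CPM in IgG. The groups were separate by a narrow margin, between aOX40 replicate 1 and IgG replicate 3, and the difference did not pass (log2 fold change 1.24, SE 0.40, adjusted p = 0.0904, edgeR). DESeq2 and scaling by total counts called it, at an adjusted p of 0.0399 and 0.0462. Dusp4, the remaining nuclear MKP, was under 3 CPM in every library (log2 fold change 0.09, SE 0.91).

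Among the MKPs directed at p38 and JNK, Dusp16 was at 86.2, 63.6 and 71.5 CPM in aOX40 and at 40.5, 61.4, 72.9, 60.6 and 97.3 CPM in IgG. These ranges overlapped fully (log2 fold change 0.15, SE 0.27, adjusted p = 0.785, edgeR). Dusp10 was lower in the means, at 2.95, 9.12 and 11.0 CPM in aOX40 against 55.1, 18.8, 14.3, 13.0 and 8.11 CPM in IgG. One library, IgG replicate 2, carried much of this gap, and the difference did not pass (-1.48, SE 0.63, adjusted p = 0.177, edgeR). Dusp8 lay between 0.011 and 1.66 CPM in aOX40 and between 1.14 and 8.91 CPM in IgG, with overlap (-2.62, SE 0.85, adjusted p = 0.0910, edgeR).

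Of 3 ratios computed per length within a library, which do not depend on how libraries are scaled, 2 separated the groups. All 3 pairs were chosen after values were seen and were not tested. Each of the 2 set a gene with a higher aOX40 mean against a gene with a lower one, so its separation adds no support. How often gene pairs of the table separate was not counted. Per length of transcript, Dusp1 was 28.2, 11.4 and 20.7 times Dusp6 in the aOX40 libraries. In the IgG libraries it was 107, 37.1, 116, 54.7 and 49.4 times Dusp6. The ratio of Dusp2 to Dusp5 was 0.141, 0.176 and 0.160 in aOX40 and 0.0189, 0.0692, 0.0388, 0.0829 and 0.0582 in IgG. All 3 aOX40 libraries lay below the IgG libraries in the former ratio and above them in the latter. The ratio of Dusp6 to Mapk3, the ERK1 gene, did overlap, at 2.51, 4.39 and 5.56 in aOX40 and 1.62, 4.92, 2.595, 2.30 and 3.46 in IgG.

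**Figure D3:**
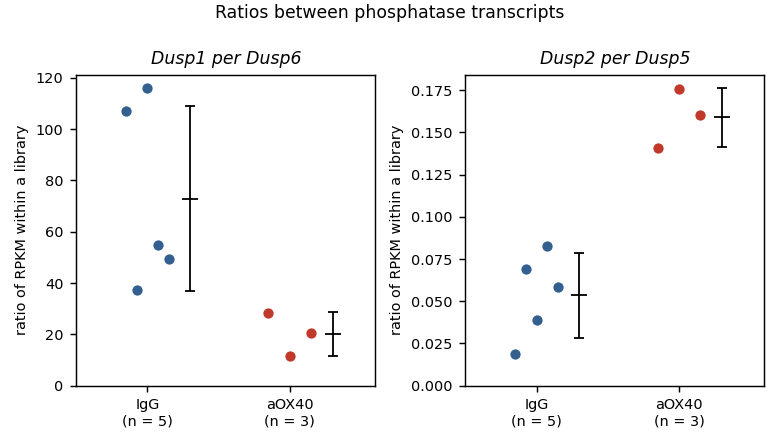
Ratio of RPKM within each library (vertical axes) for Dusp1 to Dusp6 and for Dusp2 to Dusp5, with a point per library in IgG (blue, n = 5) and aOX40 (red, n = 3), and the mean with its SD in black. The groups do not overlap in either panel, with 11.4 to 28.2 against 37.1 to 116 on the left. The pairs were chosen after values were seen, and the ratio of Dusp6 to Mapk3, which overlapped, is not drawn.

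The promoter windows of the 3 MKPs with the highest levels per length, Dusp1, Dusp5 and Dusp6, are shown because these genes share a feedback role and lay on different sides of 0. Each window runs from 250 bases before to 50 bases after a gene's start, 5′ to 3′ on the strand of the gene, from RefSeq on GRCm38.p6. They lie at chr17:26508423-26508722 (minus strand), chr19:53528895-53529194 (plus) and chr10:99262981-99263280 (plus). Capitals mark matches on either strand to the cAMP response element TGACGTCA, the AP-1 element TGANTCA, the ETS core CCGGAA, the TATA motif TATAAA or the CArG box, the binding element of serum response factor.
Dusp1: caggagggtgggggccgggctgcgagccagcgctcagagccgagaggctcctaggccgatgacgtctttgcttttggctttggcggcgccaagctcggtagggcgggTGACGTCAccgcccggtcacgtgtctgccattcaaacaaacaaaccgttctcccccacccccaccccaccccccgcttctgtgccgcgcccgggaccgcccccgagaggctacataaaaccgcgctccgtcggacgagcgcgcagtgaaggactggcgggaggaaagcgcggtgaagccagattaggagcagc
Dusp5: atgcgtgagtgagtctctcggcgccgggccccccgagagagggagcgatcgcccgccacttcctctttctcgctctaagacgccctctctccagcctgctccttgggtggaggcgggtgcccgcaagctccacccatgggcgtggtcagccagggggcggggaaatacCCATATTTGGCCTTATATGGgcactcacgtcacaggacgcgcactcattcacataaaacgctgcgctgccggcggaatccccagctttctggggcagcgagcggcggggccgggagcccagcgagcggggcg
Dusp6: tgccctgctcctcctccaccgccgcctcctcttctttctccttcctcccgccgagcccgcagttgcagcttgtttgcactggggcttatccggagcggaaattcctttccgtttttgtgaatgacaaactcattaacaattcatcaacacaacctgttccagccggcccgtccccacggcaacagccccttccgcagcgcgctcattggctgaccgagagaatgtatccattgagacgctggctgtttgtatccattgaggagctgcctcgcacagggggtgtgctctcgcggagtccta
The Dusp1 window held 1 match, to the cAMP response element, which was found in 1.79% of the 32851 windows of that length. The Dusp5 window held 2 matches to the CArG box, found in 1.63% of windows. The Dusp6 window held 0 matches, which says only that these letters are not in this stretch. Of 49 members with a window (60 windows in all), 15 held the ETS core, among them Map2k1, Map2k3, Map2k4, Map3k11 and Mapk1ip1l; 25.0% of the members' windows held it, against 14.9% of all windows. The other motifs were in 1.67% of member windows against 13.6% of all (TATA), 3.33% against 7.81% (AP-1), 3.33% against 1.79% (cAMP response element) and 1.67% against 1.63% (CArG box). A match describes the sequence and is not evidence of binding.

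The atypical DUSPs, small phosphatases that lack the MAP kinase binding domain of the MKPs, were mostly low. Of 7 tested, 4 had a mean below 1 CPM, and 0 passed in edgeR, with 2 at an unadjusted p below 0.05 (Dusp3 and Dusp11). Dusp11, which acts on the phosphates of RNA 5′ ends, was the highest of them. It was at 74.9, 56.04 and 71.1 CPM in aOX40 and at 122, 90.3, 120, 90.7 and 95.1 CPM in IgG. The groups did not overlap, but the difference did not pass (log2 fold change -0.62, SE 0.21, adjusted p = 0.101, edgeR); DESeq2 and limma voom with quality weights called it lower. Its exons overlap an unnamed gene model, Gm19265, on the other strand.

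**Figure D4:**
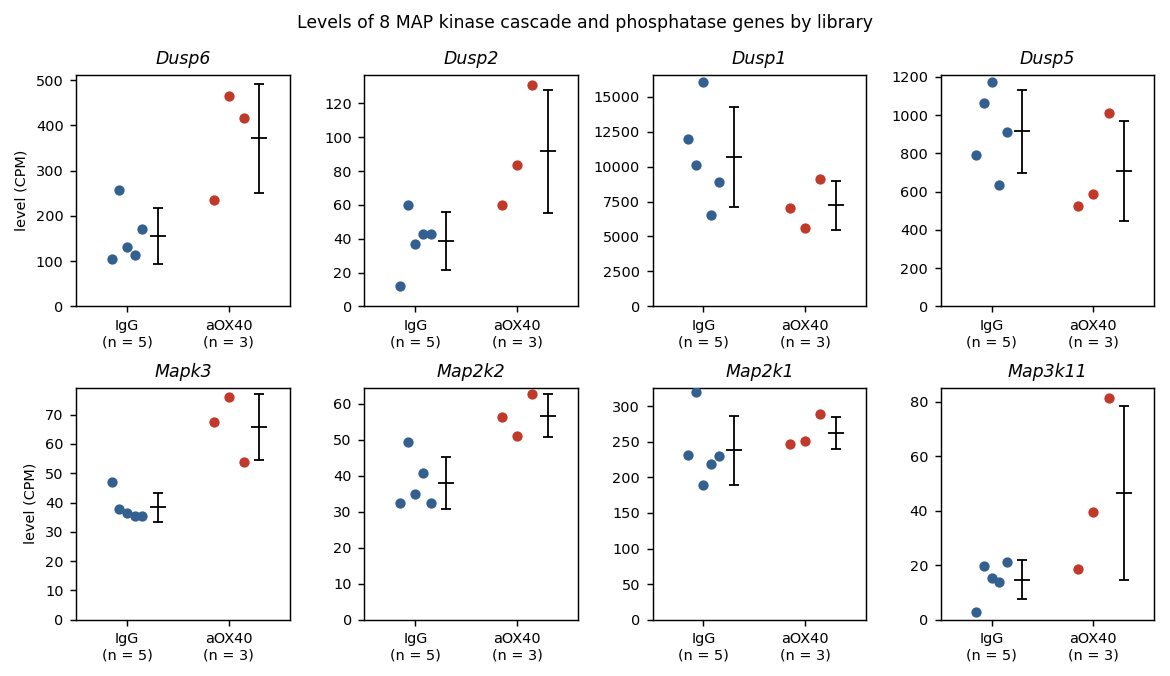
Level in CPM (vertical axes from 0) of 4 phosphatase genes (upper row) and 4 kinase genes (lower row), a point per library in IgG (blue) and aOX40 (red), with the mean and its SD in black. Mapk3, Map2k2 and Dusp2 show no overlap between the groups, while Dusp6 overlaps through IgG replicate 3, at 257 CPM, and aOX40 replicate 1, at 235 CPM.

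Of the 8 MAP kinases among the members, 0 passed in edgeR and 1 had an unadjusted p below 0.05. That gene was Mapk3, which encodes ERK1. It was at 67.4, 76.1 and 53.9 CPM in aOX40 and at 47.1, 37.7, 36.4, 35.6 and 35.5 CPM in IgG. All 3 aOX40 libraries lay above all 5 IgG libraries. The log2 fold change was 0.78 (SE 0.21, 95% interval 0.32 to 1.23), and the adjusted p of 0.0522 (edgeR) missed the threshold. Over 20 alternatives its adjusted p ran from 0.00309 (DESeq2) to 0.290 (replicate block, with few degrees of freedom left). Of the 20, 6 called it higher.

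Mapk14, the alpha isoform of p38, was at 21.0, 36.4 and 21.0 CPM against 15.8, 8.26, 36.1, 30.3 and 16.01 CPM, with wide overlap (log2 fold change 0.29, SE 0.42, adjusted p = 0.713, edgeR). Mapk13, the delta isoform of p38, varied least of the members at 10 CPM or more, with a coefficient of variation of 7.54% between IgG libraries (73.4 to 99.2 CPM in aOX40, 86.2 to 103 CPM in IgG). The JNK genes were low: Mapk8 lay between 0.492 and 6.45 CPM and Mapk9 between 0.336 and 8.71 CPM over the 8 libraries, and neither passed.

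All 6 MAP2K members had a log2 fold change above 0, and 0 passed in edgeR, with 1 at an unadjusted p below 0.05. Map2k1, Map2k3 and Map2k4 were each below 0 in 1 of 20 alternatives. Map2k2, which encodes the ERK activator MEK2, was at 56.3, 51.0 and 62.9 CPM in aOX40 and at 32.4, 49.6, 35.0, 40.8 and 32.4 CPM in IgG. The groups did not overlap (log2 fold change 0.58, SE 0.22, adjusted p = 0.132, edgeR). Scaling by total counts called it higher, and no other alternative did. Its partner Map2k1, which encodes MEK1, was at 247, 251 and 289 CPM against 231, 319, 190, 219 and 230 CPM (0.14, SE 0.20, adjusted p = 0.7099, edgeR). The activators of p38 and JNK showed wide overlap. Map2k3 ran from 214 to 401 CPM in aOX40 and from 220 to 346 CPM in IgG, and Map2k4 from 105 to 249 and from 119 to 191 CPM. In these MAP2K genes with overlap, the 95% interval of the log2 fold change still reached 0.59 (Map2k1), 0.70 (Map2k3) and 0.84 (Map2k4).

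Among 14 MAP3K members, 7 were above and 7 below 0, and 0 passed in edgeR, with 3 at an unadjusted p below 0.05. Map3k11, an activator of JNK also called MLK3, was at 18.5, 39.4 and 81.1 CPM in aOX40 and at 2.98, 19.6, 15.3, 14.0 and 21.2 CPM in IgG. The lowest aOX40 library lay within the IgG range (log2 fold change 1.66, SE 0.51, adjusted p = 0.0810, edgeR). Without aOX40 replicate 3 the log2 fold change was 0.99, and 3 of 20 alternatives (total counts, a minimum of 1 CPM and DESeq2) called it higher. Its exons overlap those of Pcnx3 on the other strand. Map3k8, the kinase TPL2 that links Toll-like receptors to ERK in myeloid cells, was at 158, 117 and 161 CPM against 503, 120, 276, 172 and 138 CPM, with IgG replicate 2 far above the rest (-0.73, SE 0.43, adjusted p = 0.329, edgeR). Map3k14, the NF-kB inducing kinase, was at 12.8, 25.8 and 15.4 CPM against 25.6, 24.9, 29.3, 26.4 and 12.3 CPM, again with overlap (-0.39, SE 0.33). Map3k5, the stress kinase ASK1, Map3k1 and Map3k7, the kinase TAK1, lay between 3.72 and 26.0 CPM in every library, with log2 fold changes of -0.13 (SE 0.38), -0.24 (SE 0.33) and 0.67 (SE 0.45).

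The remaining MAP3K genes with an unadjusted p below 0.05 were Map3k4 and Map3k20. Map3k4 was below 1 CPM in every library. It met the count rule through the aOX40 libraries, so its direction was set by the rule. Map3k20 was at 6.73, 6.62 and 8.16 CPM in aOX40 and from 7.18 to 20.5 CPM in IgG. Of the 4 MAP4K members, the most upstream kinases here, 0 passed in edgeR and 1 had an unadjusted p below 0.05. That gene, Map4k1, known as a brake on lymphocyte receptor signalling, was at 2.21, 2.35 and 0.499 CPM against 9.71, 5.58, 6.83, 1.13 and 4.27 CPM (log2 fold change -1.67, SE 0.66, adjusted p = 0.152, edgeR). Map4k2 (25.9 to 62.4 CPM over the 8 libraries) and Map4k4 (14.7 to 42.8 CPM) showed wide overlap.

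The MAPK-activated kinases, which p38 and related kinases phosphorylate, had log2 fold changes between 0.32 and 0.50, and 0 of 3 passed in edgeR or reached an unadjusted p below 0.05. Mapkapk2, the p38 effector MK2 that stabilises cytokine transcripts, was at 505, 415 and 614 CPM in aOX40 and at 348, 389, 406, 416 and 490 CPM in IgG (0.32, SE 0.19, 95% interval -0.10 to 0.74). Of the 6 members that are neither kinase nor phosphatase, 0 passed in edgeR and 4 had an unadjusted p below 0.05, as did 24.8% of all genes tested. Of these 4, Mapkbp1 met the count rule through IgG libraries alone, so its lower direction was set by the rule. Mapk1ip1l was at 44.5, 53.2 and 57.9 CPM in aOX40 and at 85.3, 82.6, 94.3, 73.5 and 83.0 CPM in IgG. The groups were well apart (log2 fold change -0.69, SE 0.19, adjusted p = 0.0612, edgeR), and 4 of 20 alternatives called it lower. Mapk1ip1, which overlaps Ppp2r2d on the other strand, was at 14.0, 12.1 and 13.4 CPM against 56.3, 31.1, 18.1, 23.5 and 15.99 CPM, without overlap (-1.13, SE 0.41, adjusted p = 0.121, edgeR).

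Levels were compared between genes only per length, as RPKM, CPM per kilobase of a gene's exons, and as means over the 8 libraries. Dusp1 was far above every other member at 2840 RPKM (1685 to 4849 over the libraries) and made up between 78.8% and 89.9% of the summed RPKM of the phosphatases. Next were Dusp5 at 339 RPKM and Mapkapk2 at 147, followed by Map2k3 at 83.3, Dusp6 at 75.5 and Map2k1 at 72.9, whose ranges overlapped. Map3k8, the highest MAP3K, was at 45.7 RPKM and Map2k4 at 34.6. The highest MAP kinase over the 8 libraries was Mapk13 at 28.7 RPKM, followed by Mapk3 at 21.6. Their order differed between the groups: Mapk13 was above Mapk3 in the IgG means (29.7 against 17.0 RPKM) and below it in the aOX40 means (26.9 against 29.2 RPKM), with aOX40 replicate 3 as the exception. The highest MAP4K was Map4k2 at 5.30. Within the roles the highest members were also Dusp16 among MKPs for p38 and JNK (8.88), Dusp11 among atypical DUSPs (10.3) and Mapk1ip1 among the rest (12.3).

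**Figure D5:**
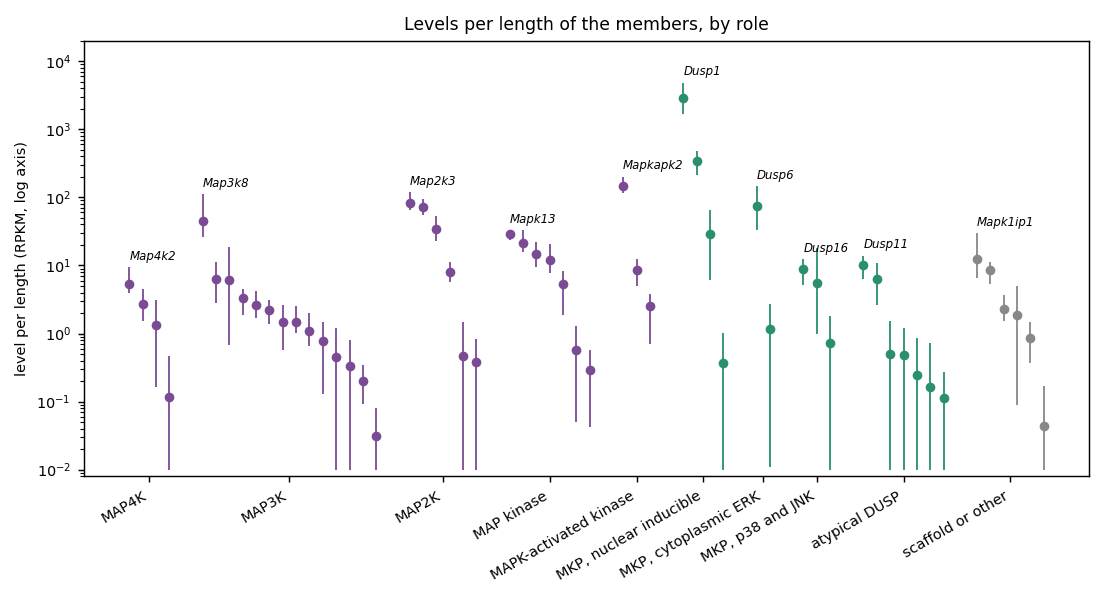
Level per length of the members (1 MAP kinase is not drawn; RPKM, log axis; minima below 0.01 are drawn at 0.01), ordered within each role, with the mean over 8 libraries as a point and the lowest to highest library as a line. The highest member of each role is named, with Dusp1 at 2840 RPKM above all others.

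Summed per length, the kinases gave 509, 525 and 661 RPKM in aOX40 and 532, 527, 498, 474 and 529 RPKM in IgG. The phosphatases summed to 2465, 2139 and 3380 RPKM in aOX40 and 4016, 3632, 5418, 2327 and 3165 RPKM in IgG, with overlap. Without Dusp1 they summed to 349, 454 and 635 RPKM against 405, 582, 570, 346 and 483 RPKM. Among the 33 members with a mean of at least 10 CPM, IgG replicate 2 was the highest of the 8 libraries for 8 members and the lowest for 9. That library was the highest for Map3k8 and Dusp10 and the lowest for Dusp2, Dusp6 and Map3k11. The median coefficient of variation of these members between IgG libraries was 33.8%, and the highest was 86.7%, for Dusp10.

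Genes around the cascade were counted from 6 lists, beside the 5.65% of all genes tested that passed and the 24.8% with an unadjusted p below 0.05. Of genes with a mean of at least 10 CPM, where most list genes lay, 10.1% passed. Among RAS and RAF inputs and adaptors, 3 of 21 tested rose and 0 fell over all genes tested. These were Shc1, an adaptor from receptors to RAS (33.4 ± 4.57 against 9.47 ± 3.04 CPM, log2 fold change 1.81, SE 0.28), and Rasa1 and Rasal3, both RAS GTPase activators, which switch RAS off. Rasa1 rose from 2.99 ± 1.25 to 9.71 ± 1.41 CPM, and Rasal3 from 0.259 ± 0.558 CPM, with 3 IgG libraries at 0 counts, to 4.49 ± 2.53 CPM. Rasal3 met the filter of the test through the aOX40 libraries, the group where it was higher, so its direction was set by the filter. Among substrates and effectors, 1 of 21 rose and 3 fell. Rps6ka1, the ERK-activated kinase RSK1, rose from 12.5 ± 3.14 to 42.5 ± 15.4 CPM (1.77, SE 0.29, adjusted p = 0.0144, edgeR). Mef2d, a transcription factor that p38 and ERK5 act on, fell from 147 ± 26.9 to 56.3 ± 19.6 CPM. Elk4, a partner of serum response factor, fell by 1.07 on the log2 scale and Zfp36, the MK2 target that destabilises cytokine transcripts, by 1.21.

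Among immediate early and AP-1 genes, 0 of 21 rose and 2 fell. Atf3 fell from 1286 ± 541 to 479 ± 23.1 CPM and Fosl2 from 412 ± 62.4 to 212 ± 59.3 CPM, with no overlap in either (16% of all genes showed none). The other 3 lists had no member past the threshold in edgeR. Of the ERK-induced feedback inhibitors 1 of 6 tested had an unadjusted p below 0.05, of the inputs to stress MAP kinases 2 of 14, and of the other MAP kinase phosphatases 1 of 10. The feedback inhibitor was Errfi1, lower in aOX40 at 29.0 ± 5.58 against 70.1 ± 36.5 CPM (log2 fold change -1.27, adjusted p = 0.0835, edgeR). Of the 6 feedback inhibitors, 3 lay above and 3 below 0. Each list with calls had genes on both sides at an unadjusted p below 0.05 in edgeR. These were 3 higher and 6 lower immediate early genes, 4 and 3 RAS and RAF genes, and 4 and 4 substrates and effectors. The medians of the 6 lists lay between -0.15 and 0.20, beside 0.05 for all genes. Together the lists had 4 higher calls, Rasal3 included, and 5 lower calls, and these numbers changed when single libraries were left out. Without aOX40 replicate 1 there were 3 higher and 0 lower, without aOX40 replicate 2 there were 0 of both in edgeR, and without aOX40 replicate 3 there were 0 higher and 1 lower. Over all genes tested, 0 also passed in either direction without aOX40 replicate 2. Without IgG replicate 2 there were 3 higher and 4 lower in the lists. Without IgG replicate 3 there were 2 higher and 3 lower, and without IgG replicate 4, 5 or 6 there were 3 lower. Of 20 alternatives, Shc1, Rps6ka1 and Mef2d were called in 17, Atf3 in 14, Rasa1 and Rasal3 in 12, Elk4 and Zfp36 in 11, and Fosl2 in 9.

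The 7 rows under the count rule were Map2k6, Map3k6, Map4k3, Mapk10, Mapk8ip1, Dusp13 and Dusp22. Just outside the rule, Map2k6 held 124 counts in aOX40 replicate 2, 60 in IgG replicate 4 and at most 3 elsewhere. Just inside it, Mapkbp1 held 17, 63 and 73 counts in IgG replicates 4, 5 and 6 and 0 in the other 5 libraries, all 3 of aOX40 included. It thus met the rule only through the group where it was higher, and its lower direction in aOX40 is no result. All 57 members also passed the filter of the test across genes.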

How the data were processed

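Gene expression was measured by bulk RNA sequencing in 8 libraries labelled as neutrophils, 3 aOX40 and 5 IgG, grouped by sample title. The values deposited by the authors are estimated counts for each gene symbol, unscaled; 63.4% of the values were whole within 0.01. STAR 2.6.0, Subread and featureCounts 1.5.1 and build mm10 were used, per the submitters' processing notes; settings, strand and annotation are not stated there, and overlapping genes may share reads. Counts were rounded, filtered with filterByExpr by group and scaled with TMM factors, and tested with edgeR 4.0.16 (R 4.3.3; estimateDisp, then the quasi-likelihood F test with legacy off) over 13278 genes, with Benjamini-Hochberg adjustment and a threshold of 0.05. CPM used TMM factors; RPKM used exon lengths from GENCODE M21. Near copies, sought with BLAST+ 2.17.0 (95% identity over 50% of a transcript), were found for Mapkapk5 alone. Alternatives used other scalings, filters, DESeq2 1.42.0, limma 3.58.1, a replicate block and each library left out; edgeR's legacy and robust settings, and levels in IgG or aOX40 alone, were added after seeing the data. The legacy argument was not fixed beforehand: the default (legacy on) was run first and called 320 genes and 0 members, then 12 combinations of dispersion, robust and legacy settings were tried with their member calls in view, and legacy off was taken because it gave the 750 calls of an earlier analysis of this table. It decides the only member call. The procedure was also run on simulated data, with strong changes set in genes that were not low. That run does not bear on the legacy choice, on low-count members or on smaller changes.

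The members, lists and named genes were chosen with earlier results of these data known. Named were the members that passed, a fixed set of members, the 3 next by p, the highest of each role per length and up to 4 called genes of each list; the ratios, the promoters shown and a few further members were chosen after their values were seen. Of the MAP kinases, 1 member is counted but not reported here on its own.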

Additional observations from a re-analysis of the deposited data

Results flagged for a closer look

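In the group of 5 IgG libraries, 4 of 33 values examined had 1 library set apart from the rest by Dixon's criterion (a gap above 0.71 of the group's range). For normally distributed values, chance alone gives this in about 5% of groups. The CPM values were not log-transformed and need not be normally distributed, so 4 of 33 is not read as an excess. Dusp10 was at 55.1 CPM in IgG replicate 2 and between 8.11 and 18.8 CPM in the other IgG libraries. Map3k7 was at 17.1 CPM in IgG replicate 2, against 3.72 to 7.31 CPM. Mapk3 was at 47.1 CPM in IgG replicate 2, against 35.5 to 37.7 CPM. Map3k14 was at 12.3 CPM in IgG replicate 6, against 24.9 to 29.3 CPM. Without IgG replicate 2, edgeR called Mapk3 higher (adjusted p = 0.0463) and no longer called Dusp6 (0.0734).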

How the results depend on the processing

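Dusp6 kept its direction in all 20 alternatives and its call in 11. Apart from the legacy run, every edgeR alternative kept legacy off, the setting picked with calls already seen. Dusp6 was not called without the low-count filter (log2 fold change 1.26), with edgeR's legacy setting (1.26), with the replicate block (1.41) or in 6 of the 8 analyses with 1 library left out (1.07 to 1.51 over the 8). The kinases had 3 higher calls with total counts, 2 with a minimum of 1 CPM, 2 with DESeq2, 1 with limma voom, 1 with quality weights, and 0 to 1 with 1 library left out. The phosphatases had 2 higher calls with total counts and with DESeq2, 0 without the filter, with the block and with the legacy setting, and 0 to 2 with 1 library left out; DESeq2 and limma voom with quality weights each called 1 lower. The kinase median became 0.53 with total counts, which shifted all genes by 0.30, and the phosphatase median 1.11 and 1.16 with limma voom without and with quality weights. Over all genes, calls higher and lower were 874 and 246 with total counts, 194 and 258 without the filter, 622 and 683 with quality weights, 109 and 211 with the legacy setting, and 932 were lower with DESeq2; with 1 library left out there were 0 to 263 higher and 0 to 326 lower, with 0 of both without aOX40 replicate 2. In the pathway lists, higher and lower calls were 9 and 3 with total counts, 7 and 9 with quality weights, 2 and 2 with the legacy setting, 0 to 4 of each with 1 library left out, and lower calls were 3 without the filter, 8 with a minimum of 1 CPM and 12 with DESeq2. With the longest transcript as length, 9 of 10 roles had the same highest member, and in the aOX40 libraries alone also 9. The cause of these changes was not tested.

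Replicate numbers are shared by only 2 aOX40 and 2 IgG libraries and nothing says that they pair samples; deviations of same-numbered libraries correlated at 0.0443 and 0.0807. With the number as a replicate block, 0 genes passed in either direction (1377 higher and 1217 lower at an unadjusted p below 0.05), including 0 members and 0 genes of the lists. That fit drew the group difference only from the libraries with shared numbers and left few degrees of freedom. Its lack of calls therefore says little about the genes. Low levels limited precision: 6 members had a mean below 1 CPM.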
